A study of Mus musculus with 10 samples.

Results

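Regulators of G-protein signalling (Rgs proteins) were followed through 10 genes, Rgs2, Rgs4, Rgs5, Rgs7, Rgs10, Rgs12, Rgs14, Rgs16, Rgs17 and Rgs20, in hippocampal RNA of mice with and without A-CREB, after kainate or saline. The genes were chosen by symbol, and every probe set that the platform annotation gives to 1 of the symbols was taken, which made 25 of the 45101 probe sets of the array. Of these, 23 were bright enough to be tested, out of 27022 tested probe sets, and all 10 genes had at least 1 tested probe set. The remaining 2 both belong to Rgs12, with signals of 23.1 to 92.1 for 1429380_at and 7.95 to 108.7 for 1457511_at. A probe set is a group of short probes against 1 or more transcripts, and its MAS5 signal is a fluorescence intensity that cannot be compared between probe sets.

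The study asked how A-CREB, a dominant-negative inhibitor of the cAMP-responsive transcription factor CREB, bears on hippocampal gene expression at rest and after kainate, an excitant that works through glutamate receptors and triggers seizures. The arrays formed 5 groups of 2, all from mice 3 weeks old: A-CREB mice (strain label TetO-A-CREB-95 C57BL6 F1/J) given saline, kainate at 14 mg/kg or kainate at 18 mg/kg, wild-type mice (strain label C57BL6 F1/J) given kainate at 14 mg/kg, and wild-type mice given saline. The strain label is missing from 1 array of each wild-type group, no wild-type group here received 18 mg/kg, and the interval after injection and the driver of the TetO transgene were not given in the sources used here. Each array held a pool of 3 to 4 mice, 20 A-CREB and 14 wild-type mice in all, so errors and p-values describe the spread between pools. The arrays carried no check of the transgene. In whole hippocampus, fewer cells of a type and less RNA per cell cannot be told apart.

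G-protein-coupled receptors act by loading the alpha subunit of a heterotrimeric G protein with GTP, and the signal lasts until that GTP is hydrolysed. Rgs proteins speed up this hydrolysis through a shared catalytic fold and so shorten or dampen receptor signals. In the brain some of them are present steadily, while others, Rgs2 among them, are known as activity-induced transcripts.

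The promoters shown are those of Rgs2 and Rgs4, which responded to kainate, and that of Rgs16, whose reading depended on the analysis. All lie on chromosome 1 of the mouse and are given as the 250 bases before the annotated start, 5′ to 3′ on the strand of the gene, from RefSeq on build GRCm38.p6. Rgs2 is at chr1:144004150-144004399 on the minus strand, Rgs4 at chr1:169747643-169747892 on the minus strand and Rgs16 at chr1:153740103-153740352 on the plus strand. Capitals mark TGACG, the half-site of the cAMP response element to which CREB binds, or its reverse complement CGTCA.
Rgs2: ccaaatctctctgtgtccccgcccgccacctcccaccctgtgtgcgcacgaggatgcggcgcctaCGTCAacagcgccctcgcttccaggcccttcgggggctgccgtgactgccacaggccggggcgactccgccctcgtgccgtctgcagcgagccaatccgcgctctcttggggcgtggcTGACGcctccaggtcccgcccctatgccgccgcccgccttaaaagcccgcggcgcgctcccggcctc
Rgs4: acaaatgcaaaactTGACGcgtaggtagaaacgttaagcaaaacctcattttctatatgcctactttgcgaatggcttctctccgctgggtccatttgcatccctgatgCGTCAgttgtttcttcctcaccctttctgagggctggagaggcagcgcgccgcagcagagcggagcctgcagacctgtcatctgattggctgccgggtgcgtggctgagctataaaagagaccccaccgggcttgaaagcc
Rgs16: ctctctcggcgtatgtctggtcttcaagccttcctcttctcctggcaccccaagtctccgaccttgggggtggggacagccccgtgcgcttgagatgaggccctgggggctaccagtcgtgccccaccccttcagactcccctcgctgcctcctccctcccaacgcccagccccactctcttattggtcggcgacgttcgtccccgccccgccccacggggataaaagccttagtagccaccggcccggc

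Rgs2 holds TGACG 67 bases and CGTCA 185 bases before its start. Rgs4 holds TGACG 236 bases and CGTCA 141 bases before its start, and Rgs16 holds neither. The search covered windows from 250 bases before to 50 bases after each start, and 8 of the 10 genes had a window, 9 windows in all because Rgs12 had 2. The half-site on either strand was in 3 of these 9 windows, the third being a window of Rgs12 with a match 82 bases before the start, against 20.8% of the 32851 windows in the table. At least 2 half-sites, as in Rgs2 and Rgs4, were in 5.01% of all windows. The full palindrome TGACGTCA was in 0 of the 9 windows and in 1.79% of all windows, the letters TATAAA on the gene's strand were in the window of Rgs4 alone and in 8.32% of all windows, and the CArG box, the site of serum response factor, was in 0 of the 9 and in 1.63% of all. These matches are letters in a window, and binding was not measured. In the order of coding genes on chromosome 1, Rgs4 stands next to Rgs5, Rgs16 next to Rgs8 and Rgs2 next to Rgs13.

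Whether kainate had acted was read from Npas4 and Fos, activity-induced transcription factors. Averaged over both genotypes at 14 mg/kg they were higher after kainate by 5.93 ± 0.19 and 3.39 ± 0.16 on the log2 scale (estimate ± SE, 2 arrays in each group; limma adjusted p = 2.41e-06 and 3.6e-05). Markers of hippocampal neurons were present on every array, 8 of 8 tested, with a summed signal of 9704 to 14293. In A-CREB mice the sum was 13683 and 14293 after saline, 9704 and 13139 after 14 mg/kg and 10861 and 12016 after 18 mg/kg, each kainate array below both saline arrays, and in wild-type mice it was 11931 and 13063 after kainate, against 12785 and 13670 after saline. None of the 8 passed in a kainate comparison, and their part in the kainate differences of the Rgs genes was not tested. The arrays numbered 1 and 2 differed across the genome. The median signal was 94.9 to 106 on those numbered 1 and 135 to 152 on those numbered 2, and the deviations of same-numbered arrays from their group means correlated between every 2 groups. Results are therefore given from the fit without the replicate number and, where that changes the call, also with it as a block.

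Rgs2, which acts mainly on the Gq class of alpha subunits, responded to kainate in both genotypes. On 1419248_at, its brightest probe set, the A-CREB arrays read 2125 and 2113 after saline, 11270 and 11024 after 14 mg/kg and 6745 and 12365 after 18 mg/kg. Wild-type arrays read 10145 and 8108 after kainate, against 2198 and 2137 after saline. Every kainate array lay above every saline array, and the 2 A-CREB arrays at 18 mg/kg lay far apart, with the replicate 1 array the lowest of all kainate arrays. Averaged over both genotypes at 14 mg/kg, Rgs2 rose 4.65-fold, by 2.22 ± 0.18 on the log2 scale (95% interval 1.82 to 2.62; limma adjusted p = 0.000787).

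The rise of Rgs2 passed in each group of kainate arrays taken on its own. It was 2.38 ± 0.25 in A-CREB mice at 14 mg/kg (adjusted p = 0.0112), 2.10 ± 0.25 in A-CREB mice at 18 mg/kg (adjusted p = 0.0339) and 2.05 ± 0.25 in wild-type mice at 14 mg/kg (adjusted p = 0.0335), all on the log2 scale. These per-group calls were often lost when 1 array was left out, also in fits where the difference stayed the same. Leaving out 1 array at a time, 1419248_at passed in 6 of 10 fits for A-CREB mice at 14 mg/kg, and was lost without either array of A-CREB saline or of A-CREB 14 mg/kg, at differences of 2.37 to 2.40 and adjusted p up to 0.161. At 18 mg/kg it passed in 2 of 10, without A-CREB 18 mg/kg replicate 1 (2.53) or wild-type saline replicate 2, and was lost without each of the others, with 1.66 without A-CREB 18 mg/kg replicate 2 and adjusted p up to 0.326. For wild-type mice it passed in 2 of 10, when an A-CREB 18 mg/kg array was dropped, and was lost without each of the others, at 1.89 to 2.22 and adjusted p up to 0.427. The call for the mean of both genotypes passed in 10 of 10, and with the replicate block in 10 of 10 for each comparison.

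The other bright Rgs2 probe sets gave the same picture with wider errors. On 1447830_s_at the A-CREB arrays read 1454 and 1415 after saline, 8863 and 8081 after 14 mg/kg and 4862 and 9572 after 18 mg/kg, and wild-type arrays read 8141 and 5588 after kainate, against 1600 and 1516 after saline. On 1419247_at the A-CREB arrays read 1185 and 1529 after saline, 7263 and 8795 after 14 mg/kg and 4120 and 10258 after 18 mg/kg, and wild-type arrays read 6257 and 6722 after kainate, against 1172 and 1503 after saline. Kainate and saline arrays did not overlap on either. Averaged over both genotypes they rose by 2.32 ± 0.21 and 2.41 ± 0.25 (adjusted p = 0.00158 and 0.00349). In wild-type mice alone they were higher by 2.10 ± 0.29 and 2.27 ± 0.36 without passing (adjusted p = 0.0562 and 0.0992), and passed with the replicate block (adjusted p = 0.00379 and 0.00104). In A-CREB mice at 18 mg/kg 1447830_s_at rose by 2.23 ± 0.29 (adjusted p = 0.0400), while 1419247_at, at 2.25 ± 0.36, passed with the block (adjusted p = 0.00133) and not without it (adjusted p = 0.0926). When 1 array was left out, the call for 1447830_s_at at 18 mg/kg held in 1 of 10 fits, without A-CREB 18 mg/kg replicate 1, and adjusted p otherwise reached 0.376. At 14 mg/kg in A-CREB mice, where 1447830_s_at rose by 2.54 ± 0.29 (adjusted p = 0.0144) and 1419247_at by 2.55 ± 0.36 (adjusted p = 0.0358), the calls held in 6 and 3 of 10. Both were lost without any A-CREB saline or 14 mg/kg array, and 1419247_at also without either wild-type kainate array or wild-type saline replicate 1, with adjusted p up to 0.174 and 0.346. With the block, 1447830_s_at in wild-type mice was lost without kainate replicate 1 and without saline replicate 2 (adjusted p up to 0.0845). The signals of these 3 probe sets correlated at 0.981 to 0.999 over the 10 arrays, a description in which all points share their arrays. The fourth probe set, 1443250_at, was dim at 33.9 to 173, correlated with them at 0.559 to 0.626 and did not pass in any comparison, at 0.52 ± 0.37 for the mean of both genotypes (adjusted p = 1.0).

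Rgs4, which acts on the Gi/o and Gq classes and dampens muscarinic and metabotropic glutamate signals in neurons, also rose after kainate. On 1416286_at the A-CREB arrays read 3478 and 3207 after saline, 11035 and 9695 after 14 mg/kg and 7626 and 9272 after 18 mg/kg. Wild-type arrays read 10478 and 9588 after kainate, against 4874 and 3866 after saline. Again no kainate array reached down to a saline array, and the A-CREB replicate 1 array at 18 mg/kg was the lowest of the kainate arrays. Averaged over both genotypes at 14 mg/kg, Rgs4 rose 2.66-fold, by 1.41 ± 0.12 on the log2 scale (95% interval 1.13 to 1.69; limma adjusted p = 0.00151).

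In A-CREB mice the rise of 1416286_at was 1.62 ± 0.18 at 14 mg/kg (adjusted p = 0.0112) and 1.33 ± 0.18 at 18 mg/kg (adjusted p = 0.0419). In wild-type mice the difference of 1.20 ± 0.18 did not pass without the replicate block (adjusted p = 0.0755) and passed with it (adjusted p = 0.00329). Leaving out 1 array at a time without the block, it passed in 6 of 10 fits for A-CREB mice at 14 mg/kg, and was lost without either array of A-CREB saline or of A-CREB 14 mg/kg, at 1.53 to 1.72 and adjusted p up to 0.169. At 18 mg/kg it passed only without A-CREB 18 mg/kg replicate 1, in 1 of 10, and otherwise gave 1.19 to 1.38 with adjusted p up to 0.387. It passed in 0 of 10 for wild-type mice (1.04 to 1.37, adjusted p up to 0.743) and in 10 of 10 for the mean of both genotypes. With the block the counts were 10, 10, 8 and 10 of 10, the wild-type call being lost without kainate replicate 1 and without saline replicate 2 (adjusted p up to 0.0768).

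On 1416287_at the A-CREB arrays read 2087 and 2333 after saline, 6880 and 8266 after 14 mg/kg and 5005 and 7997 after 18 mg/kg, and wild-type arrays read 6494 and 7770 after kainate, against 2851 and 2632 after saline. On 1448285_at the A-CREB arrays read 1428 and 1484 after saline, 5189 and 6205 after 14 mg/kg and 3960 and 6149 after 18 mg/kg, and wild-type arrays read 4081 and 5983 after kainate, against 2091 and 1098 after saline. Both separated kainate from saline arrays in full, although the wild-type saline arrays of 1448285_at differed widely between themselves. For the mean of both genotypes they rose by 1.57 ± 0.16 and 1.82 ± 0.23 (adjusted p = 0.00294 and 0.00903). The call for 1448285_at was lost without the A-CREB saline replicate 1 array (1.80 ± 0.27, adjusted p = 0.0527) and without the A-CREB 14 mg/kg replicate 2 array (1.75 ± 0.27, adjusted p = 0.0540). In wild-type mice alone these probe sets were higher by 1.37 ± 0.23 and 1.69 ± 0.32, with adjusted p = 0.138 and 0.226 without the block and 0.00325 and 0.0289 with it. In A-CREB mice at 14 mg/kg 1416287_at rose by 1.76 ± 0.23 (adjusted p = 0.0218), and 1448285_at, at 1.95 ± 0.32, passed with the block (adjusted p = 0.00647) and not without it (adjusted p = 0.0725). At 18 mg/kg neither passed without the block, at 1.51 ± 0.23 (adjusted p = 0.0706) and 1.75 ± 0.32 (adjusted p = 0.193), and both passed with it (adjusted p = 0.00181 and 0.0209). When 1 array was left out, the call for 1416287_at in A-CREB mice at 14 mg/kg held in 5 of 10 fits and was lost without any A-CREB saline or 14 mg/kg array or wild-type kainate replicate 1 (adjusted p up to 0.256). Its blocked wild-type call held in 7 of 10 and was lost without either kainate array or saline replicate 2 of that genotype (adjusted p up to 0.0674). The blocked calls for 1448285_at held in A-CREB mice in 6 of 10 at 14 mg/kg and in 5 of 10 at 18 mg/kg, and in wild-type mice in 5 of 10, with differences of 1.86 to 2.04, 1.42 to 2.07 and 1.05 to 2.33 and adjusted p up to 0.146, 0.383 and 0.301. In A-CREB mice they were lost without any saline or 14 mg/kg array, and at 18 mg/kg also without replicate 2 of that dose. In wild-type mice the call was lost without either kainate array, saline replicate 2 or either A-CREB 14 mg/kg array. The 3 Rgs4 probe sets correlated at 0.948 to 0.971 over the arrays.

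**Figure D1:**
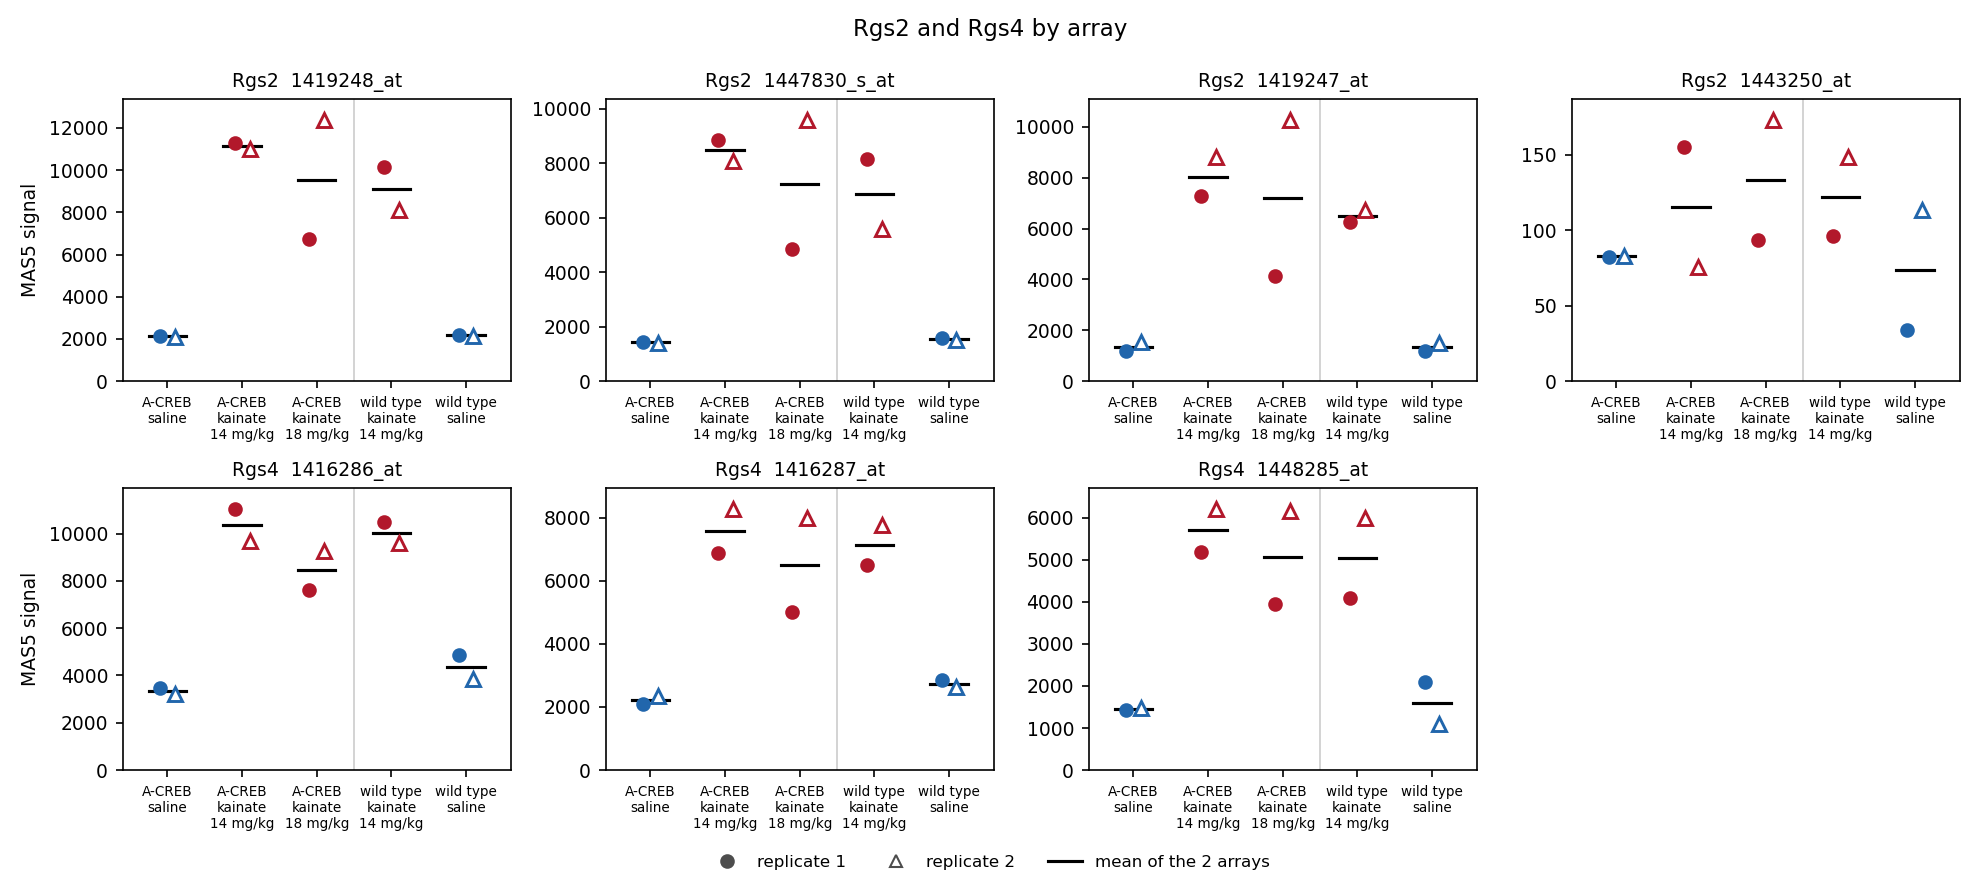
MAS5 signal (vertical axis, linear scale from 0) of the Rgs2 and Rgs4 probe sets on each array, for A-CREB saline, 14 and 18 mg/kg kainate, then wild-type kainate and saline. Circles are replicate 1, triangles replicate 2 and bars the mean of the 2 arrays; on the brightest Rgs2 probe set the kainate arrays read 6745 to 12365 and the saline arrays 2113 to 2198.

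Among the non-hippocampal markers, those of striatum, 7 of 7 tested, summed to 15503 on the wild-type kainate replicate 2 array. The other replicate 2 arrays summed to 5584 to 6983 and the replicate 1 arrays to 4353 to 4953. In all 5 groups the replicate 2 array was thus the higher. Of these markers Tac1 passed for the mean of both genotypes with the block, at 0.74 ± 0.15 (limma adjusted p = 0.0327, and 0.413 without it). It read 1347 and 1810 in A-CREB mice after saline and 2545 and 2488 after 14 mg/kg. Rgs4 is abundant in striatum, and the part of striatal tissue in the Rgs values was not tested. Without that array the rises averaged over both genotypes were as large on the brightest probe sets, 2.30 ± 0.20 for Rgs2 1419248_at and 1.45 ± 0.15 for Rgs4 1416286_at. Of the other bright Rgs2 probe sets, 1447830_s_at gave 2.46 against 2.32 with all arrays, and 1419247_at gave 2.38 against 2.41. The other Rgs4 probe sets gave smaller rises, 1.501 against 1.565 for 1416287_at and 1.68 against 1.82 for 1448285_at. In wild-type mice alone, without that array, 1 kainate array remained, which is assumed to vary like the others. The differences there were 2.22 ± 0.31 for Rgs2 1419248_at and 1.27 ± 0.23 for Rgs4 1416286_at, and 2.31 and 1.22 with the block. For Rgs4 1416287_at and 1448285_at they were 1.24 and 1.42, and 1.36 and 1.42 with the block. With all arrays these were 1.37 and 1.69.

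Counted over all 23 tested Rgs probe sets, 6 were higher after kainate in the mean of both genotypes, 3 each of Rgs2 and Rgs4, where 0.411% of all tested probe sets were higher. In A-CREB mice 5 were higher at 14 mg/kg, where 0.174% of all were, and 3 at 18 mg/kg, where 0.0703% were. In wild-type mice 1 was higher, where 0.0629% were. No Rgs probe set was lower in any of them, with or without the block; with it, 0.322% of all were lower for the mean, 0.0518% and 0.0074% in A-CREB mice at 14 and 18 mg/kg, and 0.0222% in wild-type mice. With the replicate block the counts were 7 for the mean (1.19% of all), 7 in A-CREB mice at 14 mg/kg (0.677%), 6 at 18 mg/kg (0.352%) and 6 in wild-type mice (0.315%). The median difference of the 23 probe sets was 0.18 for the mean and 0.25 in each of the 3 single comparisons, and that of all probe sets lay between -0.04 and -0.00. The A-CREB comparisons share their saline arrays.

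Genes with a pattern like that of Rgs2 were ranked over the 10 arrays. Of 13218 genes, each by its brightest probe set, the 5 most like Rgs2 on the log2 scale were Errfi1, a feedback inhibitor of the epidermal growth factor receptor (Pearson r = 0.997), Ifrd1 (r = 0.993), the nuclear receptor Nr4a3 (r = 0.992), the AP-1 subunit Fosb (r = 0.992) and Ptgs2, which makes prostaglandins (r = 0.991). Rgs4 stood at rank 31 (r = 0.967), Rgs10 at rank 594 (r = 0.622) and Rgs16 at rank 875 (r = 0.536). The points share their arrays and 5 groups, so these values describe likeness of pattern and carry no test.

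Rgs16, a relative of Rgs2 and Rgs4 that acts on the Gi/o and Gq classes, passed only with the replicate block. On its brightest probe set, 1455265_a_at, the A-CREB arrays read 177 and 513 after saline, 480 and 953 after 14 mg/kg and 325 and 833 after 18 mg/kg. Wild-type arrays read 244 and 545 after kainate, against 154 and 470 after saline. The replicate 2 array was the higher in all 5 groups, so kainate and saline overlapped, while within each replicate number every kainate array lay above the saline array of its genotype. In A-CREB mice at 14 mg/kg the difference was 1.10 ± 0.68 without the block (adjusted p = 1.0) and 1.10 ± 0.19 with it (adjusted p = 0.0237), made of 1.34 within replicate 1 and 0.86 within replicate 2. With the block it was lost without either array of A-CREB saline or of A-CREB 14 mg/kg, with adjusted p up to 0.359.

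For the mean of both genotypes at 14 mg/kg 1455265_a_at was higher by 0.75 ± 0.48 without the block (adjusted p = 1.0) and by 0.75 ± 0.14 with it (adjusted p = 0.0174), but the call held in 5 of the 10 blocked fits that left out an array. It was lost when any replicate 1 array of A-CREB saline, A-CREB 14 mg/kg, wild-type kainate or wild-type saline was dropped, or replicate 2 of A-CREB 14 mg/kg, at 0.66 to 0.84 over all 10 and adjusted p up to 0.135. At 18 mg/kg it was higher by 0.74 and in wild-type mice by 0.40, and neither passed with the block (adjusted p = 0.252 and 0.669). The 2 other Rgs16 probe sets were dimmer. On 1426037_a_at the A-CREB arrays read 168 and 93.2 after saline, 232 and 208 after 14 mg/kg and 233 and 192 after 18 mg/kg, and wild-type arrays read 241 and 104 after kainate, against 131 and 84.2 after saline. On 1451452_a_at the A-CREB arrays read 149 and 92.3 after saline, 169 and 176 after 14 mg/kg and 148 and 195 after 18 mg/kg, and wild-type arrays read 152 and 150 after kainate, against 125 and 98.4 after saline. On both of these the saline arrays of replicate 1 were the higher, the opposite of 1455265_a_at. For the mean of both genotypes they were higher by 0.61 and 0.43, and did not pass with the block (adjusted p = 0.185 and 0.384). They correlated with each other at 0.78 and with 1455265_a_at at -0.02 and 0.27, and thus ordered the arrays differently from it.

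**Figure D2:**
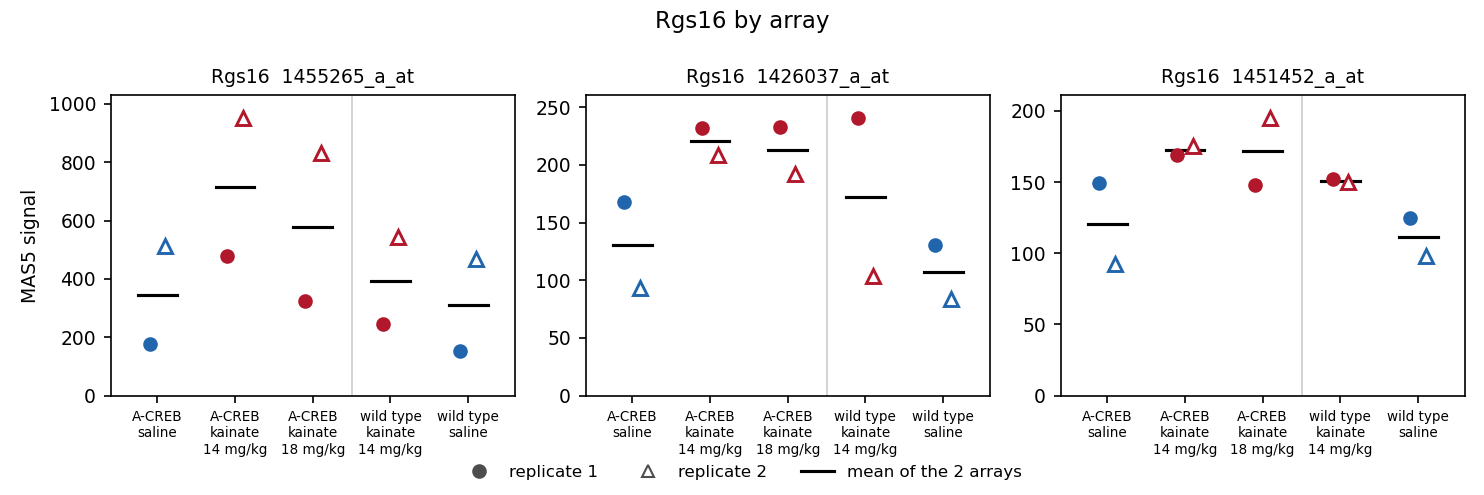
MAS5 signal (vertical axis, linear scale from 0) of the 3 Rgs16 probe sets on each array, groups as in the plot of Rgs2 and Rgs4. On 1455265_a_at the replicate 2 triangle lies above the replicate 1 circle in all 5 groups, as in A-CREB saline at 513 and 177.

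The other 7 genes, with 13 tested probe sets, did not pass in any kainate comparison, with or without the block. Their differences for the mean of both genotypes ran from -0.16 to 0.50 (lowest adjusted p = 1.0, and 0.467 with the block). Rgs5, another relative of Rgs2 and a marker of pericytes around small vessels, read on 1417466_at 3232 and 2178 in A-CREB mice after saline, 3253 and 3060 after 14 mg/kg and 3351 and 2645 after 18 mg/kg. Wild-type arrays read 3080 and 2340 after kainate, against 3071 and 2673 after saline. On this probe set the groups overlapped, and the difference for the mean of both genotypes was 0.08 ± 0.16. On the dimmer 1420942_s_at the A-CREB arrays read 1137 and 876 after saline, 1140 and 1291 after 14 mg/kg and 1234 and 1108 after 18 mg/kg. Wild-type arrays read 713 and 872 after kainate, against 1089 and 900 after saline. There the 14 mg/kg arrays did not overlap saline in either genotype, in opposite directions, and neither difference passed. In A-CREB mice the gap was narrow, at 1140 against 1137. The share of all probe sets that separate in this way, with 2 arrays a side, was not counted. Rgs5 stands beside Rgs4 on the chromosome. Mural cell markers, 10 of 11 tested, summed to 4125 to 5043 in A-CREB mice and 4242 to 5442 in wild-type mice.

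Rgs7, which acts on Gi/o in neurons as a stable complex with the beta subunit Gnb5, read on 1450659_at 1751 and 2046 in A-CREB mice after saline, 1954 and 2278 after 14 mg/kg and 2265 and 2250 after 18 mg/kg. Wild-type arrays read 1918 and 2372 after kainate, against 2193 and 2406 after saline. In A-CREB mice the 18 mg/kg arrays lay above the saline arrays. Its largest kainate difference was 0.25 ± 0.18, in A-CREB mice at 18 mg/kg (adjusted p = 1.0).

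Rgs10, a small regulator of Gi/o that is abundant in microglia, read on 1416882_at 1598 and 1450 in A-CREB mice after saline, 1952 and 1667 after 14 mg/kg and 1872 and 1643 after 18 mg/kg. Wild-type arrays read 1513 and 1509 after kainate, against 1369 and 1411 after saline. Kainate arrays lay above the saline arrays of their own genotype, but the difference of 0.18 ± 0.12 for the mean of both genotypes did not pass (adjusted p = 1.0, and 0.467 with the block). Averaged over saline and 14 mg/kg, Rgs10 was higher in A-CREB than in wild-type mice by 0.19 ± 0.12, which did not pass either (adjusted p = 1.0, and 0.867 with the block). Microglial markers, 8 of 8 measured ones tested, summed to 12406 to 17442 in A-CREB mice and to 10673 to 12209 in wild-type mice, and their part in the values of Rgs10 was not tested.

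Rgs14, a scaffold with both an RGS fold and a Gi-binding motif that marks area CA2, read on 1419221_a_at 1679 and 1557 in A-CREB mice after saline, 1839 and 1398 after 14 mg/kg and 1854 and 1633 after 18 mg/kg. Wild-type arrays read 1949 and 1678 after kainate, against 1537 and 1492 after saline. The wild-type arrays did not overlap, yet the difference there, 0.25 ± 0.19, did not pass (adjusted p = 1.0, and 0.705 with the block). CA2 markers, 4 of 5 measured ones tested, summed to 8068 to 12013 in A-CREB mice and to 9679 to 13708 in wild-type mice. Rgs12, a large relative of Rgs14, was tested on 1453129_a_at, where A-CREB arrays at 14 mg/kg (680 and 678) lay above saline (639 and 580). It read 514 to 743 there over all arrays. Its dimmest probe set, 1457511_at, which was not tested, read 28.9 and 12.8 in A-CREB mice after saline, 38.9 and 10.7 after 14 mg/kg and 72.7 and 108.7 after 18 mg/kg, close to the pseudocount of 22 in most arrays.

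Rgs17 and Rgs20, which act on the Gz and Gi/o classes, did not pass in any kainate comparison. Rgs17 ranged from 1263 to 2197 on 1450693_at and from 877 to 1381 on 1439779_at, and its differences for the mean of both genotypes were -0.07 ± 0.18 and -0.04 ± 0.16. Rgs20 ranged from 357 to 662 on 1443694_at, with the replicate 1 array the higher in every group. In A-CREB mice the 18 mg/kg arrays lay above the saline arrays on 1421493_a_at, at 219 and 215 against 208 and 167. They also did so on 1446199_at, at 93.8 and 131 against 92.3 and 80.9. The 3 Rgs20 probe sets correlated between -0.51 and 0.44 over the arrays, and 1446199_at, the dimmest at 9.40 to 136.2, gave the largest unpassed difference of the 13 probe sets, 1.06 ± 0.62 in wild-type mice (adjusted p = 1.0).

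**Figure D3:**
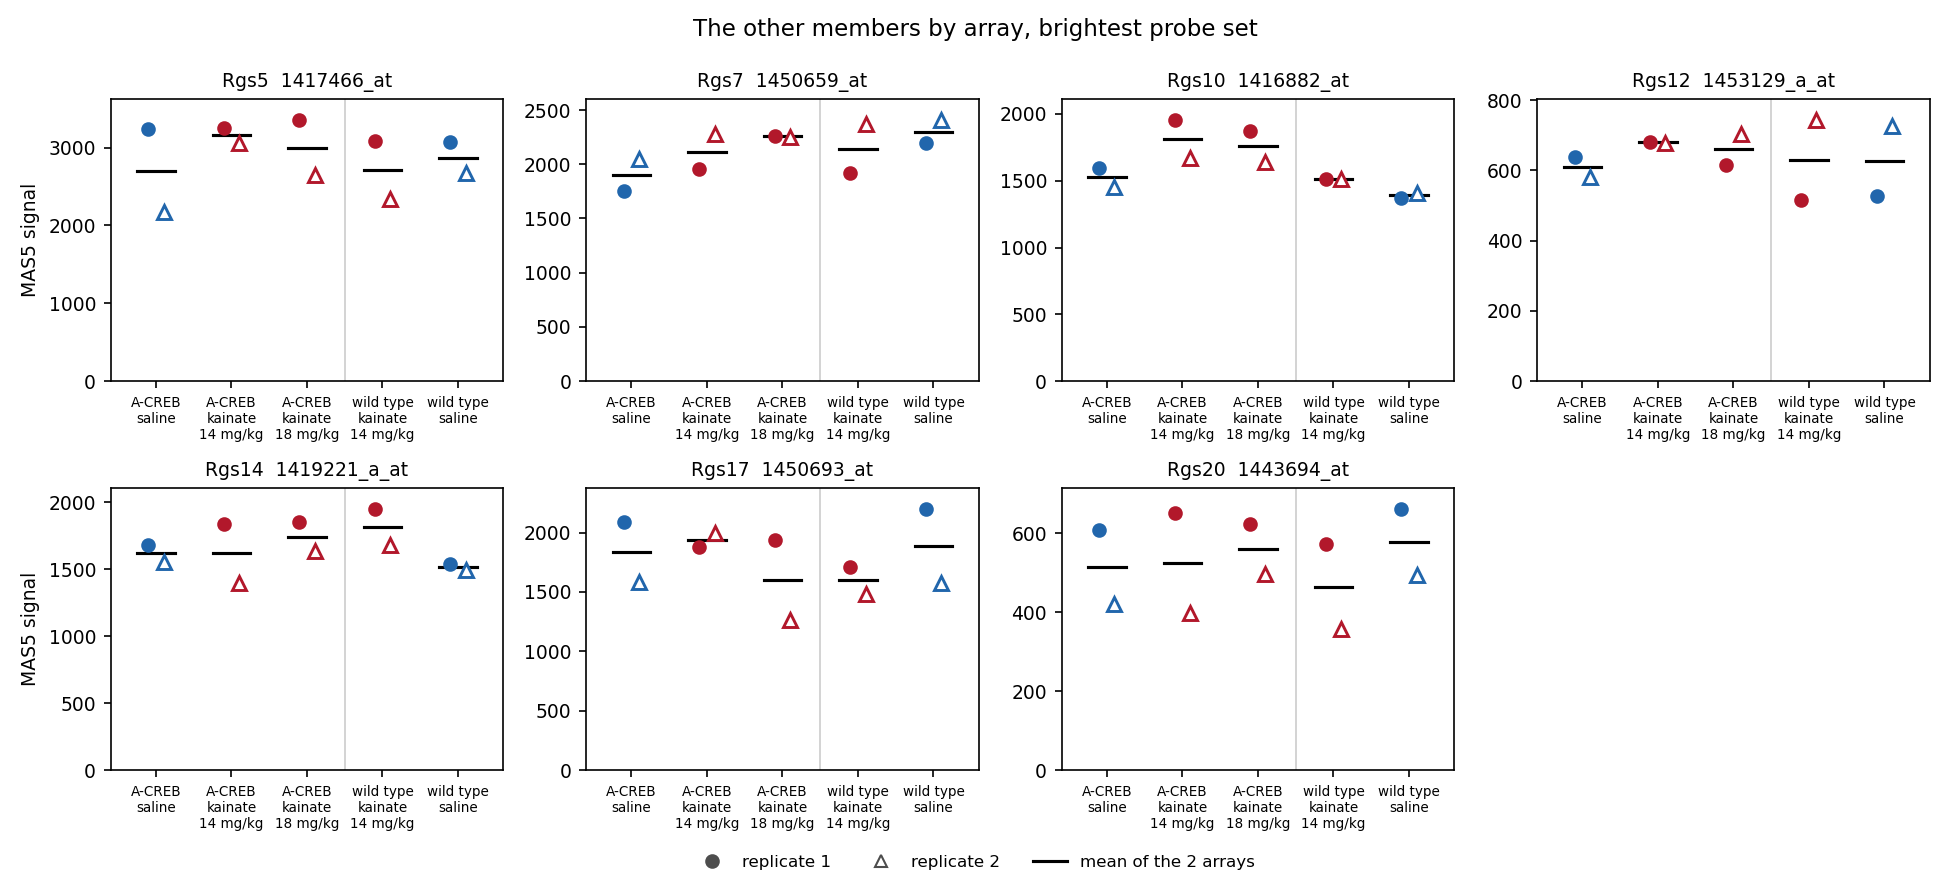
MAS5 signal (vertical axes, linear scale from 0) of the brightest probe set of Rgs5, Rgs7, Rgs10, Rgs12, Rgs14, Rgs17 and Rgs20 on each array, groups as in the plot of Rgs2 and Rgs4. The values of Rgs10 lie at 1369 to 1952, and none of the 7 genes passed in a kainate comparison.

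**Figure D4:**
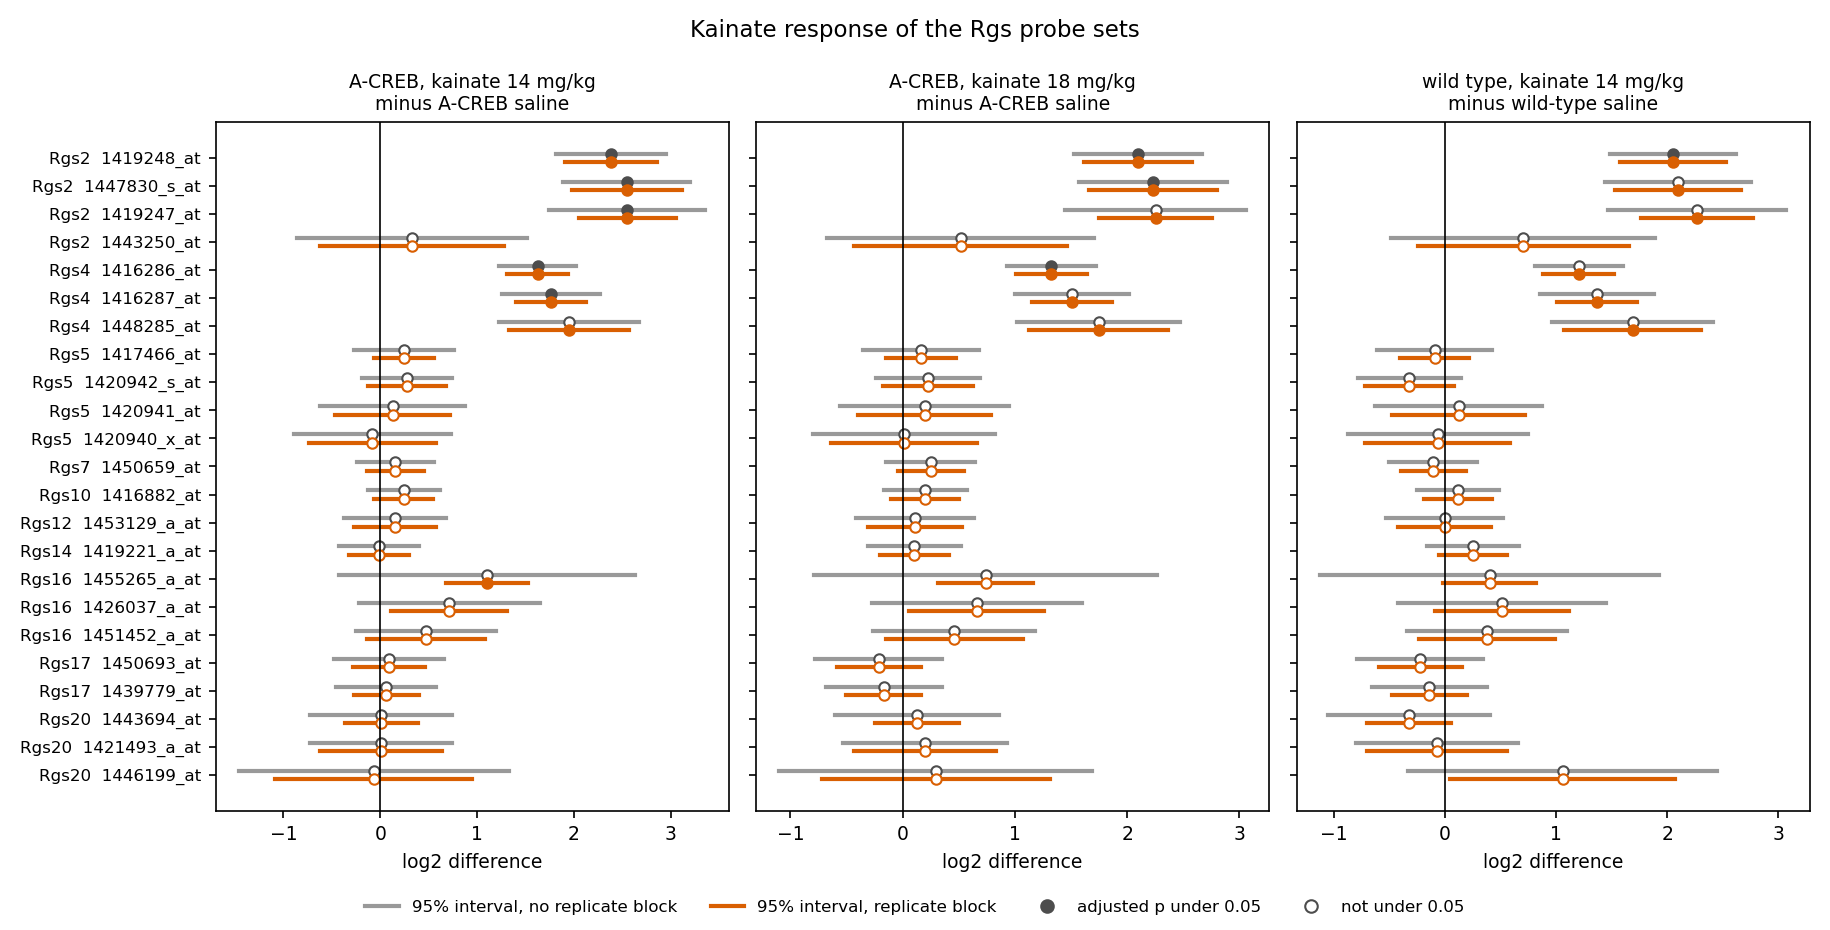
Log2 difference of kainate minus saline (horizontal axes) for the 23 tested Rgs probe sets in A-CREB mice at 14 and 18 mg/kg and in wild-type mice at 14 mg/kg, with 95% intervals from the fit without the replicate block (grey) and with it (orange). Filled points passed an adjusted p of 0.05; the 3 bright Rgs2 probe sets lie between 2.05 and 2.55 and the Rgs4 probe sets between 1.20 and 1.95.

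Whether A-CREB altered these genes at rest was read from the saline arrays, where none of the 23 probe sets passed, and 0% of all tested probe sets did. Of the 23, 0 had an unadjusted p under 0.05 in limma, where 1.3% of all tested probe sets did, and 1 with the block, where 5.07% did. Rgs4 came nearest. Its A-CREB saline arrays at 3478 and 3207 lay below the wild-type saline arrays at 4874 and 3866 on 1416286_at, a difference of -0.38 ± 0.18 (95% interval -0.77 to 0.02; adjusted p = 1.0, and 0.961 with the block). The other Rgs4 probe sets gave -0.31 ± 0.23 without overlap and -0.06 ± 0.32 with overlap. Rgs2 1419248_at differed by -0.03 ± 0.25 (95% interval -0.60 to 0.54), which leaves room for changes of either sign up to that size. Choroid plexus markers, 8 of 8 tested, summed to 4043 and 5138 in A-CREB saline and to 6474 and 9620 in wild-type saline arrays, with a median difference of -0.73. None of them passed, and their part in the Rgs values was not tested.

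For the genotypes averaged over saline and 14 mg/kg kainate, 0 of the 23 passed, where 0.0037% of all probe sets were higher in A-CREB mice, or 0.0074% with the block. Of the 23, 0 had an unadjusted p under 0.05, where 1.76% of all did, and 3 with the block, where 5.83% did. The largest was Rgs16 1455265_a_at, at 0.50 ± 0.48 (adjusted p = 1.0, and 0.714 with the block). The Rgs5 probe sets 1420941_at, 1420940_x_at and 1420942_s_at were higher by 0.45 ± 0.24, 0.41 ± 0.26 and 0.31 ± 0.15, and 1417466_at by 0.06 ± 0.16, with the lowest adjusted p of the 4 at 0.831 in the fit with the block.

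Whether A-CREB changed the response to kainate was tested as the difference between the responses of A-CREB and wild-type mice at 14 mg/kg. None of the 23 probe sets passed, and 0% of all probe sets did; 0 of the 23 had an unadjusted p under 0.05 in limma, where 0.588% of all did, and 2 with the block, where 3.04% did. For Rgs2 1419248_at the response was larger in A-CREB mice by 0.33 ± 0.36 on the log2 scale (95% interval -0.47 to 1.13). For Rgs4 1416286_at it was larger by 0.42 ± 0.25 (95% interval -0.14 to 0.98). For Rgs16 1455265_a_at it was larger by 0.70, with a 95% interval of -1.46 to 2.86 without the block and 0.10 to 1.30 with it, and an adjusted p of 1.0 in both. A response of Rgs2 that was smaller in A-CREB mice by up to 0.47 and one that was larger by up to 1.13 both lie within its interval, so equal responses were not shown. The choroid plexus markers had a median difference between the responses of 0.80, with sums of 6274 and 8267 in A-CREB and 7405 and 7436 in wild-type mice after kainate, and again their part was not tested.

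Within A-CREB mice 18 mg/kg was set against 14 mg/kg, and none of the 23 probe sets passed, where 0% of all did and no Rgs probe set had an unadjusted p under 0.05 in either fit, where 0.477% of all did in limma and 2.51% with the block. Rgs2 1419248_at differed by -0.29 ± 0.25 (95% interval -0.85 to 0.28), made of -0.74 within replicate 1 and 0.17 within replicate 2. Rgs4 1416286_at differed by -0.30 ± 0.18 (95% interval -0.69 to 0.10), with -0.53 within replicate 1 and -0.06 within replicate 2. For both genes the replicate 1 arrays thus gave the larger part of the difference. The choroid plexus markers summed to 6504 and 3632 at 18 mg/kg and to 6274 and 8267 at 14 mg/kg, a median difference of -0.61, whose part was not tested.

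**Figure D5:**
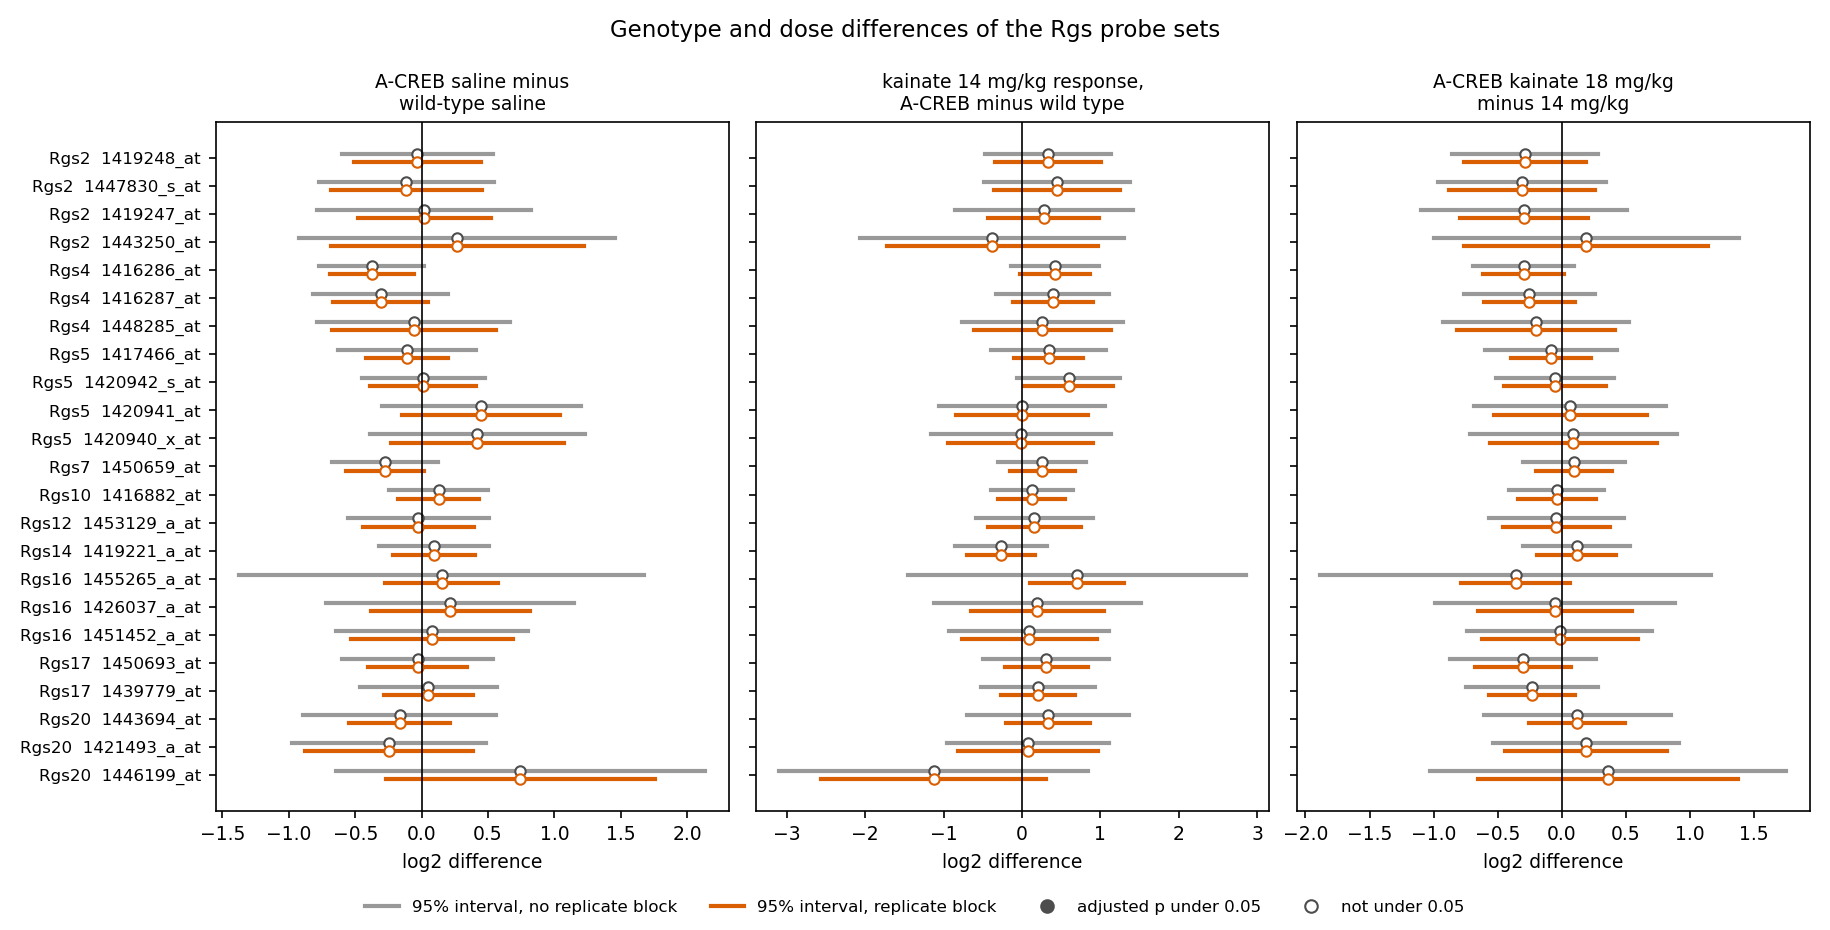
Log2 differences (horizontal axes) of A-CREB saline minus wild-type saline, of the kainate response in A-CREB minus that in wild-type mice, and of A-CREB 18 minus 14 mg/kg, for the 23 tested Rgs probe sets with 95% intervals without the replicate block (grey) and with it (orange). All points are open, since none passed; Rgs4 1416286_at lies at -0.38, 0.42 and -0.30.

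The genes with which Rgs proteins work were counted from 6 lists, 96 genes in all, of which 83 had a probe set and 72 a tested one, each by its brightest. None passed without the block in any of the 4 kainate comparisons. For the mean of both genotypes 7 of the 72 had an unadjusted p under 0.05 in limma, where 5.68% of all probe sets did. With the block 14 did, where 13.2% of all did. The 16 tested receptors held 6 of the 7 and 7 of the 14. The alpha subunits, which include the classes on which Rgs proteins act, had 12 of 12 tested. Their median difference was -0.04, with a range of -0.45 to 0.13, where all probe sets had a median of -0.03. The beta and gamma subunits had 12 of 14 tested and a median of 0.06. Receptor kinases, arrestins and guanine exchange or inhibitor proteins had 10 of 12 tested and a median of -0.04. The effectors, adenylyl cyclases, phospholipases C and inwardly rectifying potassium channels, had 15 of 15 tested and a median of -0.14.

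Among other Rgs genes, listed with the Rgs-binding proteins Rgs7bp and Rgs9bp, 7 of 12 were tested, Rgs7bp being 1 of them, with a median of 0.21. Rgs8, the neighbour of Rgs16, differed by -0.06 ± 0.13 for the mean of both genotypes (adjusted p = 1.0). Rgs1, which is expressed by immune cells, differed by 0.60 ± 0.35 (adjusted p = 1.0, and 0.354 with the block), at 26.3 to 112.9 on its probe set. Rgs9, which is enriched in striatum, read 1052 on the wild-type kainate replicate 2 array. The other replicate 2 arrays read 429 to 649 and the replicate 1 arrays 250 to 367. Rgs9 is itself 1 of the 7 striatal markers tested, so its signal is part of their sum.

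Of the receptors 16 of 31 were tested, with a median of -0.06, and with the replicate block 3 passed in A-CREB mice at 14 mg/kg, for the mean of both genotypes, or in both; they are named here after their values were seen. With the block 0.677% of all probe sets were higher and 0.0518% lower in A-CREB mice at 14 mg/kg, and 1.19% higher and 0.322% lower for the mean. Htr1a, a Gi/o-coupled serotonin receptor, read on 1438710_at 681 and 625 in A-CREB mice after saline, 371 and 283 after 14 mg/kg and 403 and 383 after 18 mg/kg, and wild-type arrays read 439 and 546 after kainate, against 602 and 626 after saline. Kainate arrays were lower without overlap in both genotypes. With the block the difference was -0.64 ± 0.14 for the mean of both genotypes (adjusted p = 0.0413) and -0.96 ± 0.19 in A-CREB mice at 14 mg/kg (adjusted p = 0.0456), and without it the adjusted p was 0.199 and 0.261.

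Oprl1, the nociceptin receptor, read on 1426204_a_at 1143 and 1147 in A-CREB mice after saline, 661 and 663 after 14 mg/kg and 728 and 713 after 18 mg/kg, and wild-type arrays read 891 and 805 after kainate, against 916 and 905 after saline. In A-CREB mice at 14 mg/kg the difference was -0.77 ± 0.15 with the block (adjusted p = 0.0375, and 0.225 without it). Htr1b, another Gi/o-coupled serotonin receptor, read on 1442077_at 263 and 342 in A-CREB mice after saline, 411 and 499 after 14 mg/kg and 378 and 510 after 18 mg/kg, and wild-type arrays read 481 and 728 after kainate, against 350 and 449 after saline. Its difference for the mean of both genotypes was 0.56 ± 0.12 with the block (adjusted p = 0.0498, and 0.659 without it). Wild-type kainate replicate 2, the array with the highest striatal markers, had the highest Htr1b signal of all, and the part of those markers in it was not tested.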

How the data were processed

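RNA was measured on 10 Affymetrix Mouse430_2 arrays, 2 in each of 5 groups, taken from the labels. The deposited intensity values are MAS5 signals on a linear scale, made by the authors with MAS5 in GCOS per the submitters' processing notes; its versions and settings were not given in the sources used here. Each array had been scaled to the same trimmed mean. Precision is limited by the number of arrays.

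Of 45101 probe sets 64 controls were left out; in the platform annotation 34945 of the others named 1 gene, 932 several and 9160 none. Signals were taken as log2(signal + 22), 22 being the 20th percentile of all signals, so that folds of dim probe sets are understated. Probe sets in the upper 60% by mean were fitted over all 10 arrays in R 4.3.3 with limma 3.58.1 (linear model, contrasts, moderated variances with a trend on intensity; 5 residual degrees of freedom, 4 with the replicate block). Tests were two-sided and Benjamini-Hochberg adjusted over 27022 probe sets within each of 8 comparisons, at 0.05. For the wild-type kainate comparison the fit without the block was tested on simulated data that held no replicate effect. The blocked fit was not tested in this way.

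The labels do not say what the replicate numbers mark. Deviations of same-numbered arrays correlated at 0.512 to 0.626 in all 10 pairs of groups, so the numbers pair the arrays. Named were all probe sets of the 10 genes, up to 3 passing genes of each pathway list, Npas4 and Fos, and the 5 genes most like Rgs2. The striatal marker Tac1 was named because it passed. Members and lists were chosen with earlier results of these data known. Alternatives were other pseudocounts, filters and normalizations, no trend, 1 probe set a gene, only the groups compared, leaving out each array and the replicate block.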

Additional observations from a re-analysis of the deposited data

How the results depend on the processing

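The numbers of Rgs probe sets higher after kainate depended on the processing, with 2 arrays a group as the limit. The cause of each shift was not tested, and some alternatives used fewer probe sets or arrays. In wild-type mice, where 1 was higher, there were 2 with the upper 40% of probe sets, 0 with quantile or cyclic loess normalization, 0 without the intensity trend, 6 with the replicate block, 2 with 1 probe set a gene and 3 with only the groups compared, and 0 to 4 when 1 array was left out. In A-CREB mice at 14 mg/kg, where 5 were higher, there were 3 with quantile or cyclic loess normalization, 0 without the trend and 2 genes with 1 probe set a gene, and 0 to 6 when 1 array was left out. At 18 mg/kg, where 3 were higher, there were 1 without a filter, 0 without the trend, 6 with the block and 0 with only the groups compared, and 0 to 5 when 1 array was left out. For the mean of both genotypes, where 6 were higher, there were 2 genes with 1 probe set a gene, and 5 to 6 when 1 array was left out. With the block and 1 array left out, a fit chosen after seeing the data, the counts were 2 to 6 in wild-type mice, 5 to 7 and 5 to 6 in A-CREB mice at 14 and 18 mg/kg, and 6 to 7 for the mean. In the genotype, response and dose comparisons 0 passed under each alternative run, and no passing probe set changed direction. Over all probe sets, calls in wild-type mice numbered 17 (10 with quantile or loess normalization, 4 without the trend, 91 with the block, 3 to 38 when 1 array was left out). In A-CREB mice they numbered 47 at 14 mg/kg (4 without the trend, 197 with the block, 2 to 61) and 19 at 18 mg/kg (12 without a filter, 2 without the trend, 2 with only the groups compared, 31 with 1 probe set a gene, 97 with the block, 2 to 49). For the mean they numbered 112 (74 without the trend, 408 with the block, 56 to 110). At rest they numbered 0 (1 with quantile or loess normalization or the block), and for the mean genotype difference 1 (0 with the upper 40%, with 1 probe set a gene and without any of the 4 A-CREB saline or 14 mg/kg arrays, 2 with the block). With the block and without wild-type saline replicate 1 they numbered 68 at rest and 37 for the mean genotype difference, none of them an Rgs probe set; the other blocked fits with 1 array left out gave 0 to 1 and 1 to 4. The block changed no call of a member other than those given beside the results.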
